A study of Rattus norvegicus with 18 samples.

Results

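The genes described here are the rat olfactory receptors whose probes gave signal in brain tissue. The array carried 1115 probes, each of 60 bases, whose gene name in the scanner files begins with Olr and a number. Probes were chosen by detection: the scanner's software had to mark a probe as well above background, in any brain area, on 4 or more of the 6 arrays that measured WHP or of the 6 that measured WLP. This kept 794 of the 1115 probes, out of 41012 distinct probes on the array. The name pattern also took in 1 probe that is no olfactory receptor, Olr1 of the oxidized low density lipoprotein (lectin-like) receptor, which met the criterion in the hippocampus alone and is counted by the rule in the 1115 and the 794. The probe of Or5b123b, named in the files as Olr357, was added by its own identifier and also met the same criterion. Because these flags chose the genes, detection is given below as a description with no test. Or5b123b was picked for its strain difference, so its ratio is described and every count of probes past the test leaves it out.

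The study set rats of the WHP strain, bred for high ethanol preference, against rats of the WLP strain, bred for low ethanol preference. All animals were male and had never received alcohol, and their age is not given in the sources used here. The brain areas were hippocampus, nucleus accumbens and prefrontal medial cortex, each with 3 pool pairs, in which 1 WHP pool and 1 WLP pool, each holding equal RNA from 3 rats, were hybridised together on 2 arrays with the dyes exchanged. The 18 two-colour arrays therefore gave 9 pool pairs, and a log2 ratio below 0 means less signal in WHP. The labels do not say whether the pools of the 3 areas came from the same rats. The strains may differ at loci unrelated to ethanol preference, and a pool hides the spread between its animals. In nucleus accumbens pair 3 and hippocampal pair 2 the ratios of the dye-swapped arrays did not correlate over detected probes (r = 0.04 and -0.01), against r values of 0.30 to 0.67 in the other 7 pairs, and results that change without them are given both ways.

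Olfactory receptors are G protein-coupled receptors that odorants bind on the cilia of olfactory sensory neurons. Each mature sensory neuron normally expresses a single receptor allele, and binding raises cyclic AMP through the G protein subunit Golf (Gnal) and adenylyl cyclase 3 (Adcy3), which opens a cyclic nucleotide-gated channel (Cnga2, Cnga4, Cngb1). The genes form the largest family in the rat genome, lie in clusters on most chromosomes, and usually have their coding sequence in a single exon. Class I receptors are the group shared with fish, and class II receptors make up the larger land-vertebrate group. Low levels of olfactory receptor transcripts are known from many tissues outside the nose, including brain.

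The following 4 members carry the strain comparisons, and their probes are printed 5′ to 3′ with the longest run of letters shared with the probe of another olfactory receptor in capitals.
Or5b123b (Olr357), chr1:216310307-216310366, plus strand: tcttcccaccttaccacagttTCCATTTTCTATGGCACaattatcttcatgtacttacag
Or10j3b (Olr1583), chr13:89424714-89424773, plus strand: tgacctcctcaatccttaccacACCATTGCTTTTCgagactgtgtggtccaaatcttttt
Or5w12 (Olr578), chr3:71372432-71372491, minus strand: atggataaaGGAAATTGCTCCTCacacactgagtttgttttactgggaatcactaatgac
Or2w6 (Olr1657), chr17:50545637-50545696, minus strand: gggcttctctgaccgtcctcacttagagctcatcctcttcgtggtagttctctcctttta
Positions are those of the scanner files in build rn4, and exon or UTR annotation of that build was not used here. The longest shared run was 17 bases for Or5b123b, with Or5b95, 13 bases for Or10j3b, with Or12d13, and 14 bases for Or5w12, with Or5w8b. The Or2w6 probe shared no run of 12 or more bases with another olfactory receptor probe, but its row listed 3 RefSeq transcripts. Over the whole family, 98 of the 1115 probes (8.8%) shared 20 or more bases with the probe of another olfactory receptor. Among the 217 probes detected in all 3 areas the share was 8.3%, and among the 321 never detected it was 9.0%.

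Detection differed by area. In the nucleus accumbens 272 of the 1115 probes (24.4%) met the criterion, in the prefrontal medial cortex 221 (19.8%), and in the hippocampus 794 (71.2%). Every kept probe was thus detected in the hippocampus. Of the 794, 217 were detected in all 3 areas, 55 in hippocampus and nucleus accumbens, 4 in hippocampus and prefrontal medial cortex, and 518 in hippocampus alone. Over all 41012 probes of the array the shares were 73.7%, 70.1% and 84.7% in the same order of areas. Both strains met the criterion for 218, 181 and 764 olfactory receptor probes. Through 1 strain only passed 31 by WHP and 23 by WLP in the nucleus accumbens, 31 and 9 in the prefrontal medial cortex, and 10 and 20 in the hippocampus. Over all probes of the array these counts were 630 and 467, 559 and 326, and 270 and 515.

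**Figure D1:**
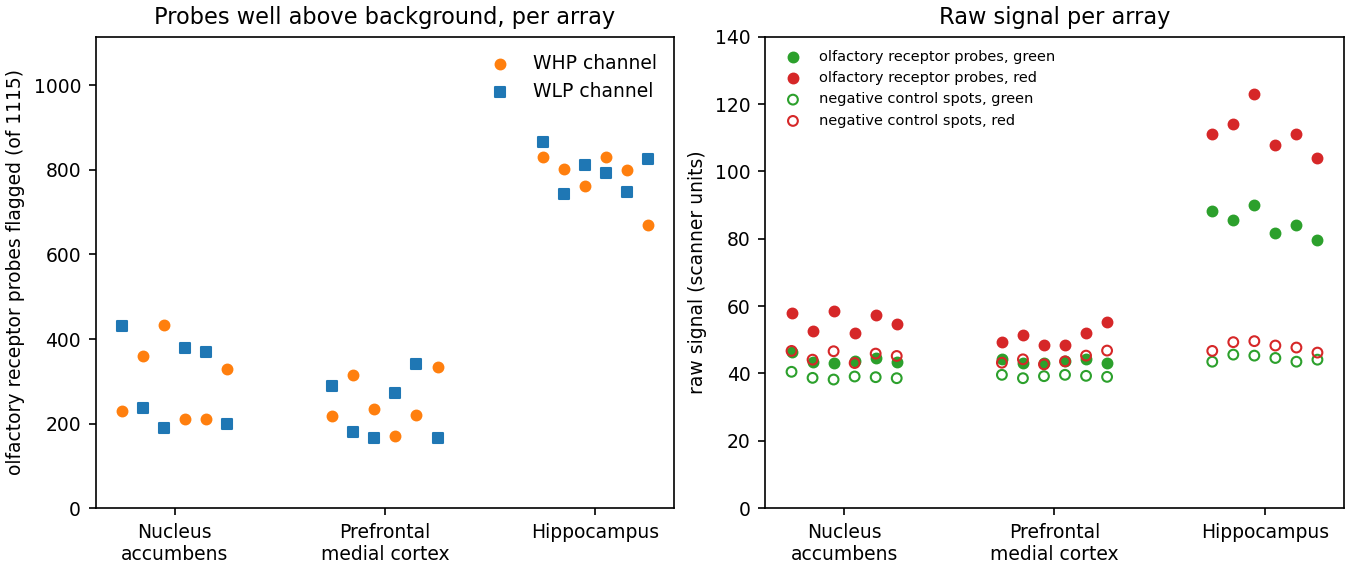
Left, number of the 1115 olfactory receptor probes marked as well above background on each array (y axis), by area (x axis), with the WHP channel as circles and the WLP channel as squares. Right, raw signal of the same arrays in scanner units, with filled points for the median olfactory receptor probe and open points for the mean of the 153 negative control spots. The hippocampus arrays stand above the others in the filled points but hardly in the open ones.

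The hippocampus arrays were hybridised on slides of their own and scanned in a session of their own, so area and session cannot be told apart for the hippocampus. The raw signal of the median olfactory receptor probe lay between 43.0 and 46.3 scanner units in green and between 48.5 and 58.6 in red on the arrays of the first session. On the hippocampus arrays it lay between 79.5 and 90 in green and between 104 and 123 in red. The mean of the negative control spots moved much less, from 38.2 to 40.5 in green in the first session to 43.5 to 45.6 in the hippocampus. The median over all spots was higher in the hippocampus too, where it lay between 148.9 and 198.7 in green against 75.9 to 96.8 in the first session. At most 2 of the 153 negative control spots were marked as above background on any array and channel. On each of the 18 arrays more olfactory receptor probes were marked in the red channel than in the green one, whichever strain it held. The part of this brightness in the hippocampal detection was not tested.

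The other chemoreceptor families of the array moved in the same direction. Of 15 trace amine receptor (Taar) probes, 2 were detected in the nucleus accumbens, 2 in the prefrontal medial cortex and 10 in the hippocampus. Of 12 vomeronasal type 1 (Vom1r) probes the counts were 2, 2 and 9, and of 42 vomeronasal type 2 (Vom2r) probes they were 8, 7 and 17. Bitter taste receptors (Tas2r, 13 probes) gave counts of 1, 0 and 6.

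Detected and undetected probes differed in base composition. The median GC content was 43.3% for the 217 probes detected in 3 areas, 40% for the 518 detected in 1 area and 36.7% for the 321 detected in none. In the hippocampus 57.0% of probes with a GC content of 35% to under 40% were detected, against 87.7% of those with 45% or more. In the nucleus accumbens the corresponding shares were 9.43% and 45.6%, and in the prefrontal medial cortex 6.56% and 40.2%. Class I receptors were kept for 83 of 114 probes and class II receptors for 665 of 937. Detection in all 3 areas ranged from 13.5% of 148 Or5 probes to 29.9% of 107 Or2 probes, and the median GC contents of these families were 38.3% and 43.3%. The base composition therefore moved with family as well as with detection, and its part was not tested.

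The criterion had few probes near its edge. In the area and strain with the most marks, 692 probes were marked on all 6 arrays, 68 on 5, 34 on exactly 4 and 36 on 3. Just inside, the dimmest of the 34 were Or5p52, Or14j1 and Or51k7, whose hippocampal levels were 6.41, 6.42 and 6.42. Just outside, the brightest of the 36 were Or4p22, Or10g3 and Or52z13, at 6.46, 6.46 and 6.45. The order of these levels across the edge therefore follows from the choice. A level here is the log2 normalized intensity, averaged over both strains and the 3 pool pairs of an area.

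Most members were dim. The median level of the 1115 probes was 6.40 in the nucleus accumbens, 6.41 in the prefrontal medial cortex and 6.67 in the hippocampus, against 6.21, 6.23 and 6.17 for the negative control spots and 7.47 for all probes in each area. Of the 794 members, 57, 55 and 183 exceeded the all-probe median in the 3 areas. Levels over 9 were reached by 11, 12 and 18 members. The 217 members detected in all areas had a median of 6.98 in the nucleus accumbens, 7.02 in the prefrontal medial cortex and 7.71 in the hippocampus. Levels of different probes depend on the probe as well as on the transcript and are not set against each other as amounts of RNA.

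**Figure D2:**
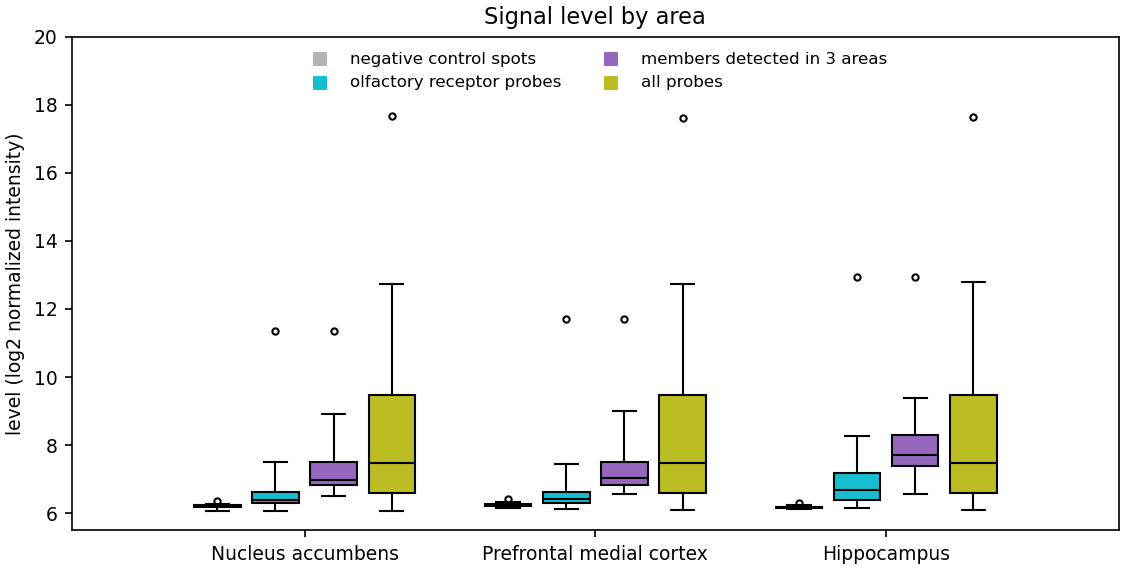
Level in log2 normalized intensity (y axis) by area (x axis) for the negative control spots, all 1115 olfactory receptor probes, the 217 members detected in 3 areas and all array probes. Boxes span the quartiles with the median as a line, whiskers run from the lowest value to the 95th percentile, and the circle is the highest value. The boxes of all 1115 olfactory receptor probes lie just above the negative controls and below the median of all probes. Those of the 217 members lie higher, with a hippocampal median of 7.71 against 7.47 for all probes.

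A few probes stood far above the rest. In the hippocampus the highest levels were those of Or10g9b (Olr1335) at 12.93 ± 0.00 (SD, n = 3 pool pairs), Or12j4 (Olr300) at 12.62 ± 0.04 and Or4f7c (Olr776) at 12 ± 0.07. Or2t48e (Olr1416) followed at 11.68 ± 0.15 and Or2a57 (Olr821) at 11.24 ± 0.11. In the nucleus accumbens the highest was Or4f7c at 11.34 ± 0.08, followed by Or10g9b at 11.26 ± 0.12, Or13a27e (Olr309) at 11.08 ± 0.06, Or2a57 at 11.03 ± 0.09 and Or12j4 at 10.98 ± 0.03. In the prefrontal medial cortex the order began with Or4f7c at 11.71 ± 0.18, Or10g9b at 11.42 ± 0.26 and Or2a57 at 11.41 ± 0.13, with Or2ak6 (Olr1439) at 11.18 ± 0.07 and Or2t48e at 11.17 ± 0.16. The rows of Or2a57, Or13a27e, Or4f7c and Or2ak6 listed more than 1 RefSeq transcript, so near-identical genes may share their signal. No strain difference passed the test for any of these 7 probes, and their ratios averaged over the areas lay between -0.07 and 0.00.

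The brightest probe in the hippocampus, Or10g9b, had a run of 8 letters in common with a small set of unrelated probes. Its strain ratio over the 9 pool pairs was compared with that of every probe detected in all areas, a comparison made after its level had been seen. Of the 14 probes most like it, 11 held the run GTCTTCCC, among them probes of Tiam1 (r = 0.995), Mical3 (r = 0.992) and the potassium channel gene Kcnj3 (r = 0.987). A choice of 6 of them and Or10g9b are printed with the run in capitals.
Or10g9b (Olr1335), chr8:42946234-42946293, minus strand: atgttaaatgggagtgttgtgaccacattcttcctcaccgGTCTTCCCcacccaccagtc
Tiam1: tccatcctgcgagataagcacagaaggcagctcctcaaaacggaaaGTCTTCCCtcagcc
Mical3: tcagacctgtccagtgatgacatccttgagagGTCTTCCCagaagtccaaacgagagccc
Kcnj3: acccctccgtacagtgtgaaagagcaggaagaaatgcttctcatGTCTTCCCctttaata
Kif13b: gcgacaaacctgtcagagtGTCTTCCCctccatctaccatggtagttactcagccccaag
Mapk8ip3: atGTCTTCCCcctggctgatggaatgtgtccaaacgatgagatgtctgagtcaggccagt
Mrgprb2: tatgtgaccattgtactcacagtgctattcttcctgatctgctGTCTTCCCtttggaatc
On this array 24 of 41012 probes (0.0585%) held the run on the printed strand, and Or10g9b was the only olfactory receptor probe of 1115 (0.0897%) to do so. The 23 others had a median level of 11.89 in the nucleus accumbens, 11.82 in the prefrontal medial cortex and 13.38 in the hippocampus, against 7.47, 7.46 and 7.47 for the probes without it. Their median rise from nucleus accumbens to hippocampus was 1.40 on the log2 scale, and that of Or10g9b was 1.67. The 66 probes that held the reverse complement had median levels of 7.36, 7.23 and 7.18. Among the 28354 probes without the run detected in all areas, 81 had an r over 0.9 with Or10g9b, and the median r was -0.01. Among the 21 of the 23 others with the run detected in all areas, 15 had an r over 0.9, and the median r was 0.98. The run was noticed among the 14 most alike probes, so the 11 of them that hold it are counted again here. The points share arrays, dyes and pools, and these correlations carry no test.

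Or12j4, on another chromosome, followed the same course without holding the run. Its probe, chr1:200428306-200428365 on the plus strand, matched that of Or10g9b at 18 letters of a stretch of 20 without gaps, shown in capitals.
Or12j4 (Olr300): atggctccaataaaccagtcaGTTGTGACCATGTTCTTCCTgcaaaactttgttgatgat
No other probe of the array matched either stretch at as many letters. The log2 ratios of Or10g9b were -0.25, 0.26 and 0.05 in the 3 nucleus accumbens pairs, 0.52, -0.30 and 0.02 in the prefrontal pairs, and -0.15, -0.17 and -0.13 in the hippocampal pairs. Those of Or12j4 were -0.24, 0.17 and -0.07, then 0.40, -0.30 and -0.09, then -0.17, -0.17 and -0.16. Both probes changed sign between pool pairs of 1 area, and in prefrontal pairs 1 and 2, where the ratios were largest, each kept its sign on both arrays. For Or10g9b these arrays gave 0.39 and 0.64 in prefrontal pair 1 and -0.28 and -0.32 in pair 2. The r of Or12j4 with Or10g9b was 0.99 over the 9 pairs, while that of Or13a27e was 0.59, of Or4f7c 0.43, of Or2a57 0.30, of Or2ak6 0.26 and of Or2t48e 0.13.

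**Figure D3:**
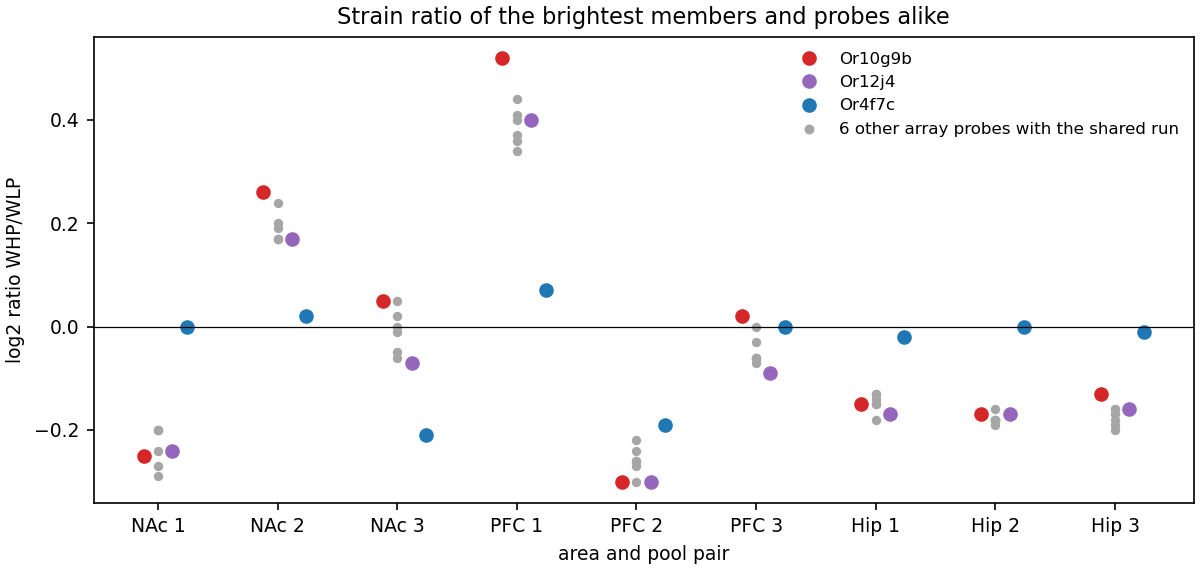
Log2 ratio of WHP over WLP (y axis) in each of the 9 pool pairs (x axis, NAc nucleus accumbens, PFC prefrontal medial cortex, Hip hippocampus) for Or10g9b, Or12j4 and Or4f7c, with 6 other array probes that hold the shared run in grey. The grey probes are the 6 holders of the run with the highest r with Or10g9b, and differ in part from those printed above. Their closeness to Or10g9b in every pair therefore follows from the choice. Or4f7c lies between -0.21 and 0.07.

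Part of this course was also seen over the other members. Over the other 216 members detected in all areas, bright ones included, the median r with Or10g9b was 0.48. Among them 4 had an r over 0.9, and Or12j4 is 1 of these. The median ratio of the detected members in each pool pair was -0.031, 0.014 and 0.031 in the nucleus accumbens, 0.053, -0.038 and -0.004 in the prefrontal medial cortex, and -0.020, -0.026 and -0.014 in the hippocampus. These medians had the sign of the Or10g9b ratio in every pair but the last prefrontal one. Medians over all detected probes stayed between -0.011 and 0.005. What the members share with Or10g9b was not tested.

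Or5b123b, the member with the largest strain ratio, is a class II receptor and was lower in WHP in every pool pair. Its WHP levels were 7.10, 6.80 and 7.04 in the nucleus accumbens, and its WLP levels there were 9.44, 9.31 and 8.74. In the prefrontal medial cortex they were 7.99, 7.02 and 7.26 in WHP and 9.84, 10.16 and 10.16 in WLP. In the hippocampus they were 7.42, 7.32 and 7.86 in WHP and 10.40, 10.05 and 10.52 in WLP. The strains did not overlap in any area, and the probe was marked as above background on all 6 arrays of both strains in each. The log2 ratio averaged -2.18 in the nucleus accumbens, -2.63 in the prefrontal medial cortex and -2.79 in the hippocampus, each with an SE of 0.23. The mean of the areas was -2.53 ± 0.13 (SE, n = 9 pool pairs), a signal 5.79-fold lower in WHP. The first array of prefrontal pair 1 gave -0.83 and its dye swap -2.87, and without that first array the prefrontal ratio was -2.97. The size also depended on the processing: with the scanner's processed signals the ratios were -3.51, -3.97 and -3.34 in the 3 areas, and with the deposited value table -3.14, -3.33 and -3.06.

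Or5b123 (Olr367), the receptor with the closest name, lies in the same cluster. Its ratios were -0.54, -0.01 and -0.05 in the nucleus accumbens, 0.06, -0.03 and -0.04 in the prefrontal medial cortex, and -0.06, -0.09 and -0.06 in the hippocampus. The mean of the areas was -0.09 ± 0.05 (SE), adjusted p = 0.397. Its other probe was not detected in any area.

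**Figure D4:**
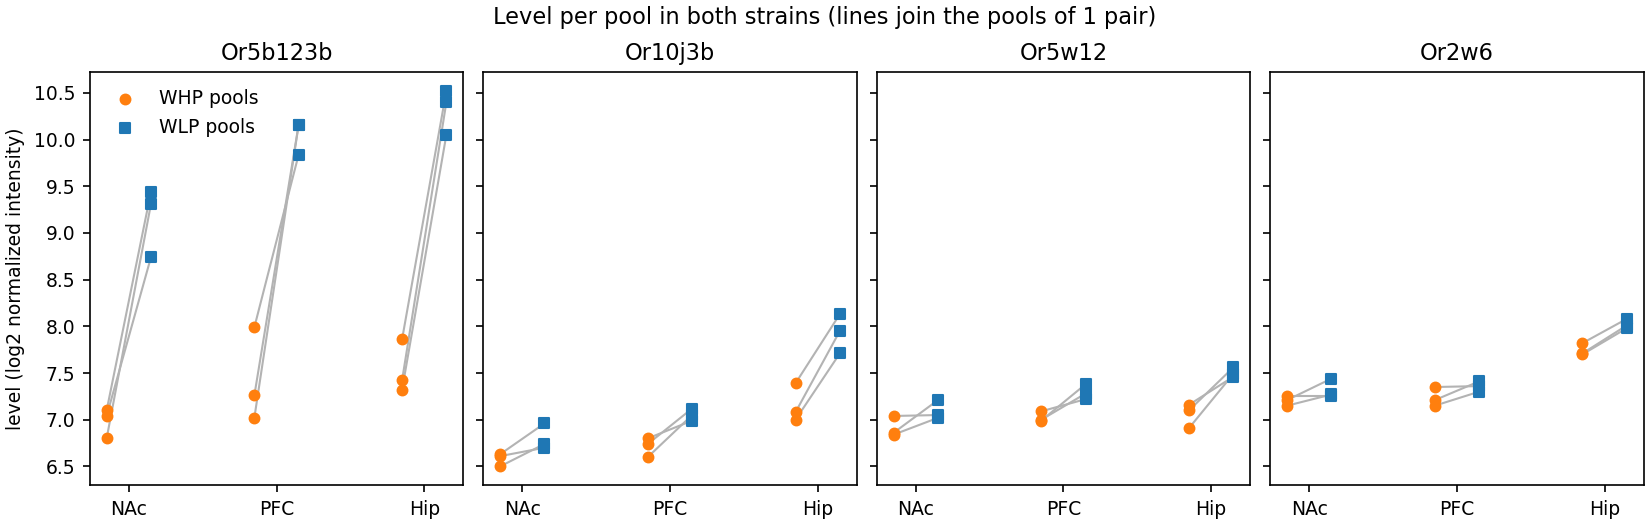
Level in log2 normalized intensity (y axis) of each WHP pool (circles) and WLP pool (squares) by area (x axis, NAc nucleus accumbens, PFC prefrontal medial cortex, Hip hippocampus) for 4 receptors, with lines joining the pools hybridised together. The Or5b123b lines are steep in every area, those of Or10j3b are steepest in the hippocampus, and those of Or5w12 and Or2w6 are shallow.

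Or10j3b, a class II receptor of the Or10 family, was lower in WHP in the hippocampus and in the mean of the areas. Its hippocampal levels were 7.08, 7 and 7.39 in WHP and 7.95, 7.71 and 8.13 in WLP, which do not overlap. The log2 ratio there was -0.77 ± 0.06 (SE, n = 3 pool pairs), a signal 1.71-fold lower, with an adjusted p of 0.00506. It was the only 1 of 793 tested members called in the hippocampus, where 0.250% of all tested probes were called in either direction and 0.104% as lower in WHP. In the nucleus accumbens WHP levels were 6.63, 6.50 and 6.61 and WLP levels 6.96, 6.74 and 6.70, with a ratio of -0.22 and an adjusted p of 0.188. In the prefrontal medial cortex they were 6.80, 6.60 and 6.74 against 6.99, 7.05 and 7.12, with a ratio of -0.34 and an adjusted p of 0.174. In both of these areas the probe was marked as above background on 2 of 6 arrays in WHP and on 6 of 6 in WLP, and the strains did not overlap. Its ratio averaged over the areas was -0.44 ± 0.04 (SE, n = 9 pool pairs), adjusted p = 0.000946. Since the probe entered this test in both areas only through the strain in which it was higher, it is not tested in the mean when detection is required in both strains.

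The hippocampal call of Or10j3b depended on how the data were processed, although the ratio was below 0 in every alternative that tested it. The adjusted p was 0.057 without hippocampal pair 2, 0.0607 without pair 3, 0.0774 without both pairs whose dye swaps did not correlate, 0.205 with the scanner's processed signals, 0.0982 with the deposited value table and 0.78 with a variance trend and robust moderation. Among the alternatives in which its mean over the areas was tested, that last setting alone lost the call, with an adjusted p of 0.156, and the mean ratio was -1.66 with the processed signals (adjusted p = 0.000739). The probe was called in the prefrontal medial cortex with no background subtraction (-0.57, adjusted p = 0.00816) and with the processed signals (-2.34, adjusted p = 0.00956). These calls carry the limit given for the mean: the probe entered the prefrontal test only through WLP, the strain in which it was higher. The test of the difference between areas did not pass, with 0.55 for nucleus accumbens minus hippocampus (adjusted p = 0.577) and 0.43 for prefrontal medial cortex minus hippocampus (adjusted p = 0.997).

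Or5w12 and Or2w6 passed the test in the mean of the areas, both lower in WHP. Or5w12 is a class II receptor of the Or5 family. Its ratios were -0.35, -0.18 and -0.01 in the nucleus accumbens, -0.27, -0.13 and -0.38 in the prefrontal medial cortex, and -0.30, -0.58 and -0.46 in the hippocampus. The mean was -0.30 ± 0.04 (SE, n = 9 pool pairs), adjusted p = 0.0135, and all 9 pairs were below 0. Without prefrontal pair 3 the adjusted p was 0.0514, and without hippocampal pair 3 it was 0.0505. Or2w6, a class II receptor of the Or2 family, had ratios of -0.23, -0.12 and 0.01, then 0.00, -0.15 and -0.20, then -0.26, -0.28 and -0.31 in the same order of areas. Its mean was -0.17 ± 0.03 (SE, n = 9 pool pairs), adjusted p = 0.0256. Its adjusted p rose to 0.0702 and 0.0905 without prefrontal pair 2 or 3, and to 0.0799, 0.0746 and 0.0869 without hippocampal pair 1, 2 or 3, and was 0.0733 without both pairs whose dye swaps did not correlate. It was 0.0526 with the deposited value table and 0.168 on arrays with WHP in Cy5 alone. With a variance trend and robust moderation the adjusted p was 0.156 for Or5w12 and 0.175 for Or2w6. With the pool pair number as a block, neither was called in the mean. The labels do not say whether the areas share rats, so the 9 pool pairs may not be independent.

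These 3 were all the members called in the mean of the areas, of 216 tested, all lower in WHP, where 1.50% of all tested probes were called lower and 2.85% in either direction. No member was called in the nucleus accumbens, of 271 tested, where 0.252% of all probes were called, or in the prefrontal medial cortex, of 220 tested, where 0.0905% were. At an unadjusted p under 0.05 the counts were 11 in the nucleus accumbens (4.06% of members against 16.3% of all probes), 4 in the prefrontal medial cortex (1.82% against 8.45%), 21 in the hippocampus (2.65% against 6.68%) and 9 in the mean of the areas (4.17% against 17.8%). No member was called in any of the 3 differences between areas, where 0% of all probes were called. At an unadjusted p under 0.05 there were 3 of 216 members for nucleus accumbens minus prefrontal medial cortex (3.32% of all probes), 12 of 271 for nucleus accumbens minus hippocampus (8.62%) and 4 of 220 for prefrontal medial cortex minus hippocampus (3.60%). These counts come from limma.

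Ratios of the members were small and narrow. From the 5th to the 95th percentile they ran from -0.11 to 0.08 in the nucleus accumbens, from -0.07 to 0.08 in the prefrontal medial cortex and from -0.08 to 0.03 in the hippocampus. Over all detected probes the same limits were -0.25 to 0.21, -0.17 to 0.18 and -0.14 to 0.18. The offset of 50 added to both channels pulls the ratio of a dim probe toward 0, so these ranges describe normalized signal at this brightness. The prefrontal range takes in the first array of pair 1. Most dim named members had ratios near 0 on it, such as Or10d1g (0, dye swap -0.26). The hippocampal median was -0.021 against -0.003 for all detected probes, with 253 members below 0 and 41 above 0 in all 3 pool pairs. Over all probes 20.8% were below 0 in all 3 pairs and 17.2% above.

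The other members with the largest ratios did not pass the test. In the nucleus accumbens Or7g21 (0.21, adjusted p = 0.242) and Or8i2 (0.19) were the highest among those with the same sign in all pairs, followed by Or2a57, Or11h4c and Or4c103, and Olr1572 (-0.22), Or5b123 and Olr1093 were among the lowest. Among members with 1 sign in all 3 prefrontal pairs Or7g21 was again the highest (0.20, adjusted p = 0.54), followed by Or14a258, Or1e22, Or52s19 and Or52z12. Or10d1g was among the lowest there at -0.16, with ratios of -0.13, -0.18 and -0.18, and its mean over the areas was -0.11 ± 0.03 (SE), adjusted p = 0.0603. Among those with 1 sign in all 3 hippocampal pairs Or4c3e (0.17), Or8b52, Or52a20 and Or4p18 were among the highest, none of them detected elsewhere, and Or6c76b (-0.23) and Or7g33c (-0.18) were among the lowest.

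The ratio of Or2a57 differed between the dye orientations. It was among the 5 highest ratios in the nucleus accumbens (0.15) and among the 5 lowest in the prefrontal medial cortex (-0.09). On arrays with WHP in Cy5 alone its mean over the areas was 0.27 (adjusted p = 0.0301), and on arrays with WHP in Cy3 alone it was -0.27 (adjusted p = 0.0308). Averaged over both orientations it was 0.00 ± 0.03 (SE), adjusted p = 0.989.

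Members lay in chromosomal clusters, as the family does. With gaps of at most 1000 kb between neighbouring members, 32 clusters of 3 or more genes held 774 of the 792 members with a position. The largest, at chr3:68578204-74747920, held 137 members of 209 olfactory receptor probes in its span, and the next, at chr1:160073295-166548802, held 124 of 172. Clusters at chr8:38972968-43140417 and chr7:2314346-8465470 held 74 of 104 and 43 of 66. The share detected in all 3 areas ran from 0% in 4 clusters of 4 to 8 probes to 66.7% of the 3 probes at chr7:14033628-14176334. It was 42.9% of 35 probes at chr10:44095988-45896688, where Or2t48e and Or2ak6 lie, 13.4% at the chromosome 3 cluster and 5.56% of 18 probes at chr13:89335387-90146143, where Or10j3b lies. The median hippocampal ratio of every cluster lay between -0.053 and 0.002.

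Strain ratios of neighbouring genes were examined within 1000 kb of the 4 receptors. Around Or5b123b, 22 of the 40 detected probes were olfactory receptors, and their hippocampal ratios ran from -0.07 to 0.04 with none called. The 2 probes of Fam111a, a protease gene linked to DNA replication, lay at -715.4 and -713.9 kb from Or5b123b and had mean ratios of -1.38 (adjusted p = 0.00726) and -0.93 (adjusted p = 0.0105). They were the only 2 of 18 tested neighbours called in the mean of the areas, both of 1 gene, where 2.85% of all tested probes were called. Around Or10j3b 0 of 9, around Or5w12 0 of 12 and around Or2w6 0 of 32 neighbours were called in the mean.

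**Figure D5:**
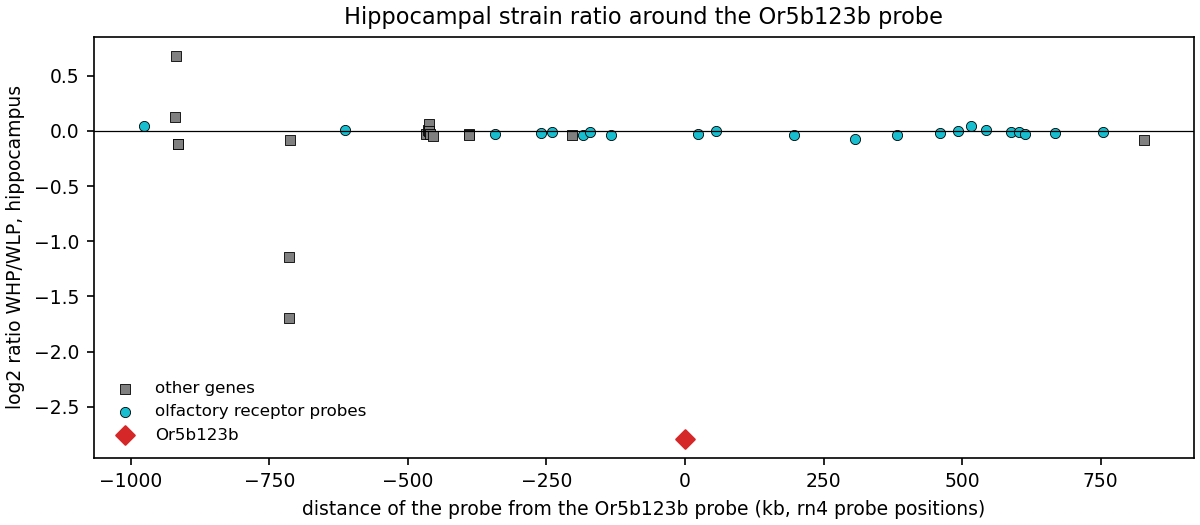
Hippocampal log2 ratio of WHP over WLP (y axis) of each detected probe by its distance in kb from the Or5b123b probe (x axis), with olfactory receptor probes as circles, other genes as squares and Or5b123b as a diamond. The olfactory receptor neighbours lie between -0.07 and 0.04, and the 2 low squares are the probes of Fam111a.

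Genes of olfactory signal transduction were measured for 28 of 32 listed genes, of which 25 were detected in the nucleus accumbens, 25 in the prefrontal medial cortex and 26 in the hippocampus. None was called in a single area. In the mean of the areas 1 of 25 was lower, Reep1, which helps membrane proteins reach the cell surface, at -0.13 ± 0.03 (SE), adjusted p = 0.0298. The chaperone Rtp1, which carries olfactory receptors to the surface, had ratios of 0.35, 0.46 and 0.63 and a mean of 0.48 ± 0.11 (SE) with an adjusted p of 0.0618. Gnal had levels of 9.09, 8.98 and 7.78 and Adcy3 of 8.28, 8.40 and 7.63 in the 3 areas, both lowest in the hippocampus. Rtp1 at 6.94, 7.09 and 7.63, the channel subunit Cngb1 at 7.21, 7.07 and 7.51 and the transcription factor Lhx2 at 10.30, 11.67 and 12.77 were highest there. Among the brightest genes of the list in the hippocampus were Ckb, Gng13 and Lhx2, which neurons outside the nose also express, at levels of 15.20, 13.51 and 12.77.

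The mean level of the markers of olfactory neurons and epithelium was not higher in the hippocampus, although more of them were detected there. Of 10 measured, 5, 5 and 7 were detected in the 3 areas. The 2 detected in the hippocampus alone were the channel subunit Cnga4, at levels of 6.48, 6.48 and 6.51, and the epithelial enzyme Cyp2g1, at 6.44, 6.41 and 6.47. The channel subunit Cnga2 was not detected in any area, at levels of 6.20, 6.17 and 6.26. The odorant-binding protein Obp1f and the enzyme Cyp2a3 were not detected either. The olfactory marker protein Omp was detected at 7.34, 7.17 and 7.19. The mean level of the 10 measured genes of olfactory neurons and epithelium above each array's median was 0.24 ± 0.04 (SD, n = 3 pool pairs) in the nucleus accumbens, 0.35 ± 0.04 in the prefrontal medial cortex and 0.11 ± 0.03 in the hippocampus. From nucleus accumbens to hippocampus the largest moves were those of Gnal (9.09 to 7.78), Rtp1 (6.94 to 7.63) and Adcy3 (8.28 to 7.63). The mean was not taken without these genes. Olfactory bulb markers stood at 1.20 ± 0.12, 1.20 ± 0.25 and 0.09 ± 0.05, also lowest in the hippocampus. Of the area markers, those of hippocampus were highest in hippocampus at 1.26 ± 0.06, and those of cortex were 0.95 ± 0.09, 2.37 ± 0.13 and 2.26 ± 0.04. Markers of striatum stood at 3.28 ± 0.41 in the nucleus accumbens but also at 3.20 ± 0.34 in the prefrontal medial cortex. Choroid plexus markers were highest in the hippocampus, at 0.14 ± 0.21, 0.34 ± 1.02 and 1.88 ± 0.26 in the 3 areas. Markers of meninges and fibroblasts stood at 2.77 ± 0.48, 2.45 ± 0.61 and 2.77 ± 0.17, and those of blood at 0.50 ± 0.10, 0.48 ± 0.07 and 0.21 ± 0.03. The part of such cells in the hippocampal detection was not tested. In pooled tissue, fewer cells of a type and less RNA per cell cannot be told apart.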

How the data were processed

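Each of the 18 arrays was read with Agilent Feature Extraction 10.10.1.1 and annotated on rn4, per the file headers. The deposited scanner files give red and green intensity per spot, local background intensity and flags for spots well above background, which served as detection, and 45018 spots per array include 1639 controls. The authors' deposited value table holds log2 ratios of WHP over WLP whose normalization is not given in the sources used here, and it served as an alternative. The number of arrays limits the precision.

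Intensities were corrected by normexp (offset 50) and normalized by loess within arrays (limma 3.58.1, R 4.3.3), with control and non-uniform spots at weight 0. The labelled dyes set the direction, WHP over WLP, and both arrays of a pool pair were averaged. Levels used Aquantile scaling. A linear model with 1 coefficient per area over 9 pool pairs (6 residual and 2.46 prior degrees of freedom) gave moderated tests, with Benjamini-Hochberg adjustment over all probes detected in the areas compared and a threshold of 0.05. The test was checked on simulated data.

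The members, gene lists and tests were chosen with earlier results of these data known. Named were Or5b123b, members past the test, per area the 5 brightest and up to 5 largest ratios in each direction with 1 sign in all pairs, probes at the edge of detection, and of the transduction list genes past the test and the 4 brightest, of which 1 is not reported here. Clusters are given by counts and spans, since their members are too many to name. Of 1115 probes 1110 matched a gene of RefSeq, the source of the Or symbols. Correlations of deviations between areas ran from -0.38 to 0.17 for equal pool pair numbers and from -0.19 to 0.36 for different ones. Each area has few pool pairs and these ranges overlap, so the correlations cannot decide whether the numbers pair the areas.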

Additional observations from a re-analysis of the deposited data

Results flagged for a closer look

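In the prefrontal medial cortex, 1 array stood apart from the other 5 for a pair of the receptors checked. Or5b123b had a log2 ratio of -0.83 on the first array of pool pair 1, against -3.16 to -2.87 on the others. Or10j3b had -0.04 on that array, against -0.46 to -0.32 on the others. Of 30 groups of 6 arrays checked in this way these 2 stood out, and chance marks about 1 in 20 such groups. Single members were checked only where chosen. Other dim members also had ratios near 0 on that array, such as Or5w12 (-0.04, dye swap -0.51), Or4c103 (0.01, -0.50) and Or7g21 (0.00, 0.45). For Or2w6 both arrays were near 0 (-0.02 and 0.01), and the bright Or10g9b gave 0.39 and 0.64. Without that array, a setting chosen after seeing the data, the prefrontal ratio of Or10j3b was -0.39 with an adjusted p of 0.0435 from limma. The Or10j3b probe entered this prefrontal test only through WLP, the strain in which it was higher. In the same setting Or10d1g was called in the mean of the areas (-0.13, adjusted p = 0.0487).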

How the results depend on the processing

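The counts of members past the test were small and moved by few members. In the nucleus accumbens the count was 0 in every alternative but arrays entered singly, which gave 2. In the prefrontal medial cortex it was 1 with no background subtraction, with the scanner's processed signals, with arrays entered singly, with WHP in Cy5 alone and without the first array of pool pair 1. In the hippocampus it was 0 with the processed signals, with the deposited value table, without the pool pairs whose dye swaps did not correlate and with a variance trend and robust moderation, and 5 with arrays entered singly. In the mean of the areas it was 6 with arrays entered singly, 7 with WHP in Cy5 alone, 6 with WHP in Cy3 alone and 0 with the trend and robust moderation. With WHP in Cy5 alone Or6c203b, Or2a57, Or52b2, Or7d11c and Or10ak14 were higher in WHP, and Or10j3b and Or5w12 were lower. All 6 were lower in WHP with arrays entered singly and with WHP in Cy3 alone. The share of all probes called was not counted for these settings. With the pool pair number as a block 1 member was called in the mean, Or10j3b, and the adjusted p-values were 0.0515 for Or5w12 and 0.0754 for Or2w6. Whether the areas share rats is not known from the labels. Leaving out 1 pool pair gave 0 to 1 members in the hippocampus and 1 to 3 in the mean. Arrays entered singly count the dye swaps of a pool pair as replicates, which is the setting's own construction. The cause of the other changes was not tested. No alternative called a member in a difference between areas. Or10j3b, Or5w12 and Or2w6 kept a ratio below 0 in every alternative that tested them. The median hippocampal ratio of the members was -0.03 with offset 10, -0.012 with no background subtraction, -0.031 with the processed signals and -0.034 with the deposited table. Relative to all probes, with the processed signals minus the 75th percentile, the median member level was -3.357 in the nucleus accumbens, -3.547 in the prefrontal medial cortex and -1.065 in the hippocampus. Detection ranged from 692 to 871 probes over its alternatives, and clusters from 30 to 40. Signal just above background limits every ratio of a dim probe.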
